A study of Mus musculus with 36 samples.

Results

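H2A.Z nucleosome profiles at the sites bound by CLOCK:BMAL1 in mouse liver were compared position by position between Bmal1-/- mice (BM) and wild-type mice (WT). The members are the 6 BM libraries of series 5, chosen by their labels, out of 36 samples in the whole series. They were set against the 24 WT libraries of series 11, 12, 25 and 26 at the same times, and against the 12 WT libraries of series 11 and 12 alone. All mice were adult C57BL/6 aged 3 to 6 months, housed in a cycle of 12 h light and 12 h dark. Livers were taken every 4 h from ZT2 at 6 times of day, where ZT (zeitgeber time) counts the hours from lights on. The BM group carries the Bmal1 deletion, and no other allele or agent is named in the labels for either genotype. The BM arm is 1 series with 1 library per time, whereas WT had 4 libraries per time. Liver was fixed with 1% formaldehyde for 10 min, nuclei were digested with micrococcal nuclease for 15 min, and mononucleosomes carrying H2A.Z were immunoprecipitated and sequenced.

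H2A.Z is a variant of histone H2A that is found in nucleosomes beside promoters and enhancers. Micrococcal nuclease cuts the linker DNA between nucleosomes, so coverage of mononucleosome fragments is high where nucleosomes sit and low over gaps. CLOCK and BMAL1 form a transcription factor at the core of the circadian clock, and without BMAL1 the pair does not bind its E-box sites. At a bound site a typical profile has a central dip over the factor and a shoulder on each side from the flanking nucleosomes. Liver is a mixture of cells, so fewer cells with an H2A.Z nucleosome at a site and less H2A.Z per cell cannot be told apart.

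A library's profile is its mean signal at positions 10 bp apart in a window of 3000 bp centred on the middle of the peak. There were 4 peak sets, namely all 3216 peaks, 583 peaks at transcription start sites (TSS), 1623 in gene bodies and 717 intergenic peaks more than 10 kb from a gene. The set of all peaks contains the other 3, so its values are not independent of theirs. The peak table gives no strand, and left and right are the lower and the higher positions of the window. Values are in units the authors scaled, from 7.31 to 79.4 over the 120 profiles, and the read depth behind them is unknown. For that reason each profile was also divided by its own flank, averaged over the outermost 25 positions per side, and this is called the flank scale. A library-wide scale factor cancels on the flank scale, and so does any change that is equal at shoulder and flank.

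The libraries fall into separate sets by their labels. WT series 11 and 12 and BM series 5 share a form of source name and 1 antibody lot number. WT series 25 and 26 have another source name and lot numbers that run on from sample to sample. The WT flank over all peaks was 9.92 and 9.93 in series 11 and 12, and 11.6 and 11.3 in series 25 and 26. WT series 25 had the highest shoulder on the flank scale, 3.14 ± 0.221 (SD, n = 6), against 2.55 to 2.71 in the other WT series. Values against WT series 11 and 12 are therefore given beside those against all 24 WT libraries, and no BM library with a row belongs to the set of WT series 25 and 26.

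In WT the profile over all peaks had its maxima at -200 bp and 180 bp and its minimum at -20 bp. At -200 bp WT averaged 31.7 ± 7.48 (SD, n = 24) and BM averaged 20.6 ± 5.63 (SD, n = 6). The 6 BM values there were 27.2, 18.8, 15.4, 25.4, 23.6 and 13.3 from ZT2 to ZT22, and the WT values ran from 16.6 through a median of 31.1 to 44.4. At 180 bp WT held 31.6 ± 7.27 (SD, n = 24) and BM 20.4 ± 5.80 (SD, n = 6). BM libraries were low at both shoulders, and the BM range lay partly within the WT range taken over all times.

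The dip changed less. At -20 bp WT held 19.9 ± 4.08 (SD, n = 24) and BM 15.1 ± 3.47 (SD, n = 6), with 19.1, 13, 11.8, 18.4, 16.9 and 11.3 from ZT2 to ZT22. The BM profile kept a shoulder on each side and a dip between them, with both shoulders closer to the level of the dip than in WT.

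The peak classes had the same form at different heights. TSS peaks had the highest shoulders, at -230 bp (51.7 ± 12.0 SD in WT, n = 24, and 35.9 ± 10.7 SD in BM, n = 6) and at 190 bp (52.4 ± 12.3 and 35.8 ± 11.7). Gene-body peaks had the lowest, at -200 bp (24.0 ± 5.58 in WT and 15.6 ± 3.79 in BM) and at 170 bp (23.5 ± 5.21 and 15.2 ± 3.45). Intergenic peaks had theirs at -210 bp (33.4 ± 8.60 and 20.1 ± 5.81) and at 170 bp (33.9 ± 8.45 and 20.5 ± 6.73). In each class the minimum between the WT shoulders was at -20 bp. In each class the BM mean was below the WT mean at both shoulders and at the dip.

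**Figure D1:**
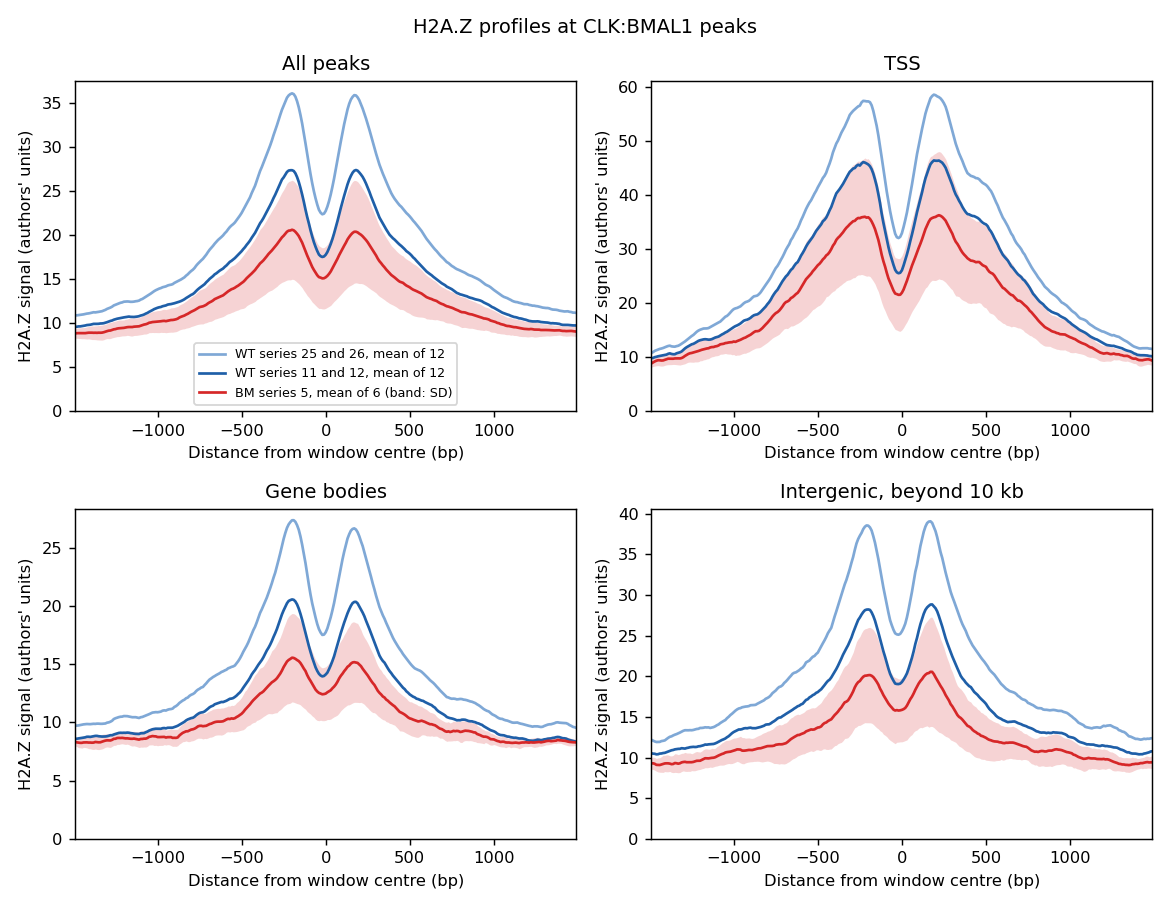
Mean H2A.Z signal in the authors' units against distance from the window centre in bp for WT series 25 and 26, WT series 11 and 12 and BM series 5, 1 panel per peak set, with a band of 1 SD around BM. BM lies below both WT sets across the window, and over all peaks at -200 bp the means were 36.1, 27.4 and 20.6 in that order.

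Where the loss lies was asked first at single positions. On the authors' scale limma called 1137 of 1196 positions (95.1%) lower in BM at an adjusted p under 0.05, and none (0%) higher, with 0 higher also at unadjusted p and by the exact permutation test. The lower calls covered every position (100%) in the sets of all peaks, TSS peaks and intergenic peaks, and 80.3% of those in gene bodies. The longest of 4 runs of gene-body calls went from -1220 to 1110 bp, and the outermost call on the left was at -1410 bp. Against WT series 11 and 12 alone, 1088 positions (91%) were lower and 0% higher, and in gene bodies they ended at -1000 and 1010 bp. These calls treat the libraries of a series as independent. With the series as a replicate block, 0 of the 1196 positions were called on the authors' scale, and 741 were lower at an unadjusted p under 0.05.

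The size of the difference varied along the window. Over all peaks the largest log2 difference (BM minus WT) was -0.65 at 180 bp (SE 0.13, limma adjusted p = 0.000251), at the right shoulder. At the dip, -20 bp, it was -0.40 (SE 0.12, adjusted p = 0.00238). It fell off outwards to -0.23 as the mean over the flank, and the smallest difference was -0.20 at 1470 bp. A difference thus remained at the window's edge, and the largest one exceeded it by 0.42 on the log2 scale.

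Dividing by the flank left a loss around the peak. On the flank scale 895 of 1196 positions (74.8%) were lower in BM and 12 (1%) higher by limma. With WT series 11 and 12 as the only controls, 768 (64.2%) were lower and none (0%) higher, with 0 higher also at unadjusted p. With the series as a replicate block, 736 positions were lower and 0 higher, also at unadjusted p for the latter. All BM libraries share a series, so this fit cannot separate genotype from series. By set the lower calls on the flank scale took 78.9% of positions over all peaks, 83.6% at TSS, 69.2% in gene bodies and 67.6% in intergenic peaks. Over all peaks the longest run of calls went from -1070 to 1100 bp with the dip included, and single stretches reached out to -1280 bp. Relative to WT series 11 and 12 alone, calls over all peaks reached from -1020 to 1020 bp and left out the dip, where the difference at -20 bp was -0.10 (SE 0.05, limma adjusted p = 0.092). The 12 higher calls lay at the outer edge of the window, 2 in TSS peaks at 1460 and 1470 bp and 10 in intergenic peaks. Their number moved from 0 to 76 with the choice of flank and of libraries. The outermost positions are part of the divisor, and the scaling holds their mean difference near 0. On the authors' scale the smallest TSS difference, at 1470 bp, was still -0.18.

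The extent of the loss differed in description between the classes. The span within which the difference stayed beyond the midpoint between its flank value and its largest value was 1280 bp over all peaks, from -670 to 610 bp. It was 1960 bp at TSS, from -1010 to 950 bp, and 1060 bp in gene bodies, from -520 to 540 bp. In intergenic peaks it was 1260 bp, from -710 to 550 bp. Against WT series 11 and 12 alone these spans were 1280, 1980, 1040 and 1230 bp in the same order. Within the spans against the 24 WT libraries, the dip did not reach the midpoint in each set. On the authors' scale it fell short over all peaks (-0.40 against a midpoint of -0.44), in gene bodies (-0.34 against -0.38) and in intergenic peaks (-0.48 against -0.54). At TSS the dip lay beyond the midpoint (-0.44 against -0.41). The TSS profile itself was the broadest and the gene-body profile one of the narrower ones, as the widths given later show.

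The largest flank-scale difference was -0.42 over all peaks at 180 bp, -0.35 at TSS at 190 bp, -0.49 in gene bodies at 180 bp and -0.42 in intergenic peaks at 200 bp. With WT series 11 and 12 as the only controls it was -0.33 at 190 bp, -0.28 at 520 bp, -0.39 at 180 bp and -0.35 at 210 bp. Against those 12 libraries the TSS difference on the flank scale was -0.275 at 190 bp and -0.26 at 500 bp, each with a limma adjusted p under the threshold (0.0113 and 0.00352).

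**Figure D2:**
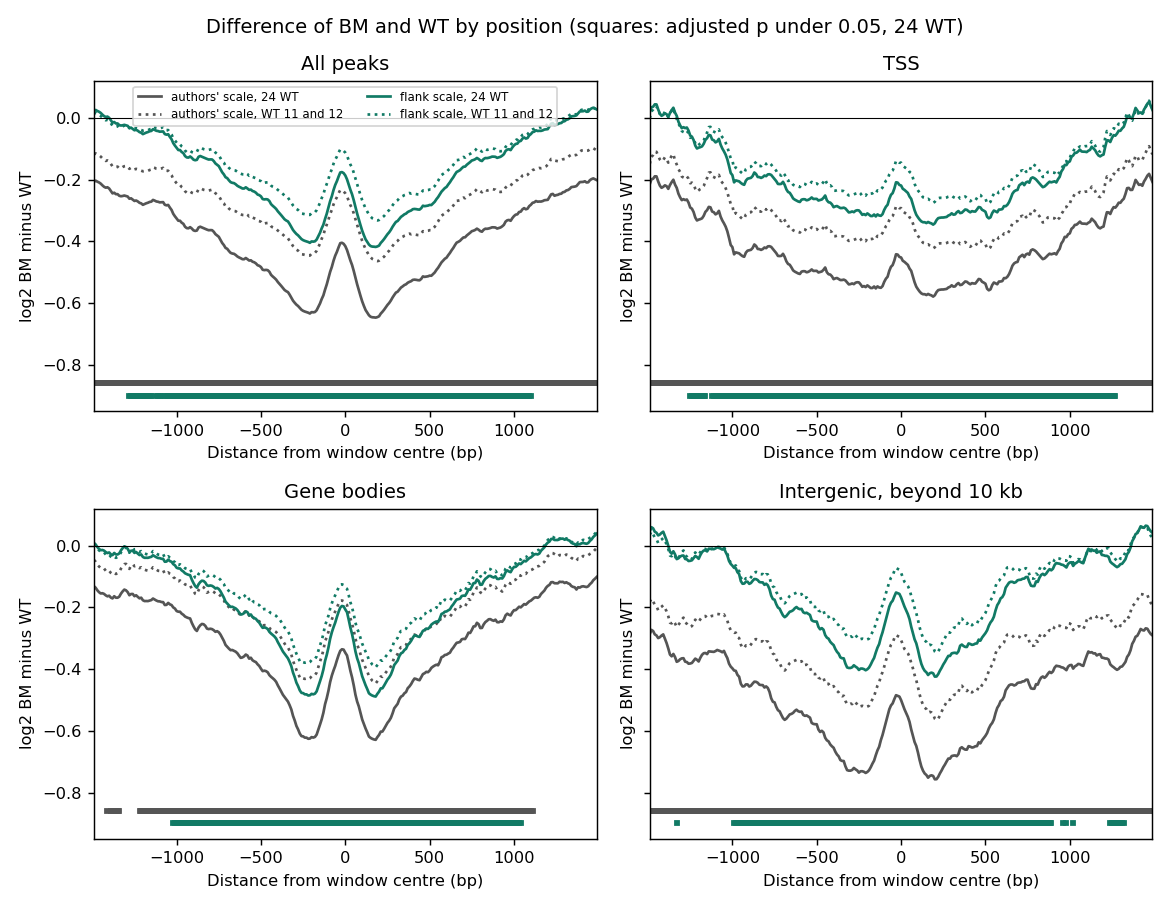
Log2 difference BM minus WT at each position against distance from the window centre in bp for the 4 peak sets, on the authors' scale (grey) and the flank scale (green), with solid lines against 24 WT libraries, dotted lines against WT series 11 and 12, and squares below for positions called lower against the 24. The curves have a trough at each shoulder, -0.65 at 180 bp over all peaks on the authors' scale, with a smaller loss of -0.40 at the dip and -0.23 over the flank.

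BM lay below every WT library of its time at each of the 6 times at 760 of 1196 positions (63.5%) on the authors' scale, and at 840 (70.2%) against WT series 11 and 12 alone. The flank-scale shares were 14.8% and 19.2%. WT series 11 and 12 are part of the full WT set, so the second value of each pair could not be the smaller one. By set the flank-scale count was 75 over all peaks, 5 at TSS, 81 in gene bodies and 16 in intergenic peaks. At no position was BM above every WT library at each time.

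The window was then cut into zones by distance from the centre on both sides. Zone values were tested by permuting genotype within time (an exact two-sided permutation test). Adjustment was over 76 tests, the zone values and the measures of profile shape given below together. Of these 59 passed, and 56 passed against WT series 11 and 12 alone. The shoulder zone from 100 to 290 bp over all peaks had a WT mean of 29.7 ± 6.8 (SD, n = 24) and a BM mean of 19.5 ± 5.2 (SD, n = 6). Its log2 difference was -0.61 (SE 0.13 over 6 times, exact permutation p = 0.000128, adjusted 0.000486), with BM below all 4 WT libraries at 6 of 6 times. Relative to WT series 11 and 12 it was -0.43 (exact permutation p = 0.00137, the smallest that this comparison can give). By class the same zone differed by -0.55 at TSS, -0.59 in gene bodies and -0.71 in intergenic peaks, each with BM lowest at 6 of 6 times.

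On the flank scale the shoulder zone over all peaks stood at 2.75 ± 0.38 times the flank in WT (SD, n = 24) and at 2.13 ± 0.43 in BM (SD, n = 6). The log2 difference was -0.39 (SE 0.10, exact permutation p = 0.000128, adjusted 0.000486), and BM was lowest at 5 of 6 times. In gene bodies the ratio was 2.38 ± 0.37 in WT and 1.74 ± 0.32 in BM, a difference of -0.45 (adjusted exact p = 0.000374) with BM lowest at 6 of 6 times. At TSS it was 4.19 ± 0.56 and 3.41 ± 0.76, a difference of -0.32 (adjusted exact p = 0.00228) with BM lowest at 4 of 6 times. In intergenic peaks it was 2.63 ± 0.36 and 2.04 ± 0.43, a difference of -0.38 (adjusted exact p = 0.000486) with BM lowest at 5 of 6 times. Against WT series 11 and 12 the differences were -0.30, -0.25, -0.35 and -0.29 for all, TSS, gene-body and intergenic peaks, and each passed.

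Against the 24 WT libraries the loss on the flank scale grew smaller zone by zone outwards from the shoulder. Over all peaks it was -0.31 from 300 to 490 bp, -0.23 from 500 to 690 bp, -0.14 from 700 to 890 bp and -0.07 in the outermost zone before the flank, from 900 bp on, and each passed the test with an adjusted exact p of at most 0.00228. At TSS these zones lost 0.29, 0.27, 0.20 and 0.13 on the log2 scale. In gene bodies the loss went from 0.32 through 0.22 and 0.13 to 0.05, and in intergenic peaks from 0.33 through 0.20 and 0.13 to 0.05. Each of these values passed against the 24 WT libraries. Against WT series 11 and 12 alone the largest TSS loss at a single position lay outside the shoulder zone, at 520 bp (-0.276). The loss at 190 bp, within that zone, was nearly the same (-0.275). With those controls the zone from 900 bp on no longer passed in gene bodies (adjusted exact p = 0.0512) and intergenic peaks (0.182). Without BM at ZT10 it passed in neither of those classes, at -0.04 in gene bodies and -0.03 in intergenic peaks, and in intergenic peaks it also fell short without BM at ZT6, at -0.03, and without WT series 25 or 26, at -0.04 each.

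The central zone within 90 bp of the peak's middle lost less than the shoulder. On the flank scale it differed by -0.24 over all peaks, -0.25 at TSS, -0.27 in gene bodies and -0.22 in intergenic peaks, and each passed against the 24 WT libraries. Relative to WT series 11 and 12 the central loss did not pass at TSS (-0.18, adjusted exact p = 0.0683) or in intergenic peaks (-0.13, adjusted exact p = 0.0834). It passed over all peaks (-0.16, adjusted exact p = 0.0348) and in gene bodies (-0.19, adjusted exact p = 0.00564).

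The flank itself was lower in BM by 0.23 on the authors' log2 scale over all peaks (10.7 ± 1.3 SD in WT, n = 24, and 9.06 ± 0.68 SD in BM, n = 6). It was lower by 0.23 at TSS and by 0.33 in intergenic peaks, and each of these 3 passed against both sets of WT libraries. In gene bodies the flank difference was -0.14 (adjusted exact permutation p = 0.0529), with WT at 9.26 ± 1.1 and BM at 8.35 ± 0.37. The gene-body difference was called without WT series 11, 12 or 26, or without BM at ZT14. Since the scaling of the libraries is not given, a lower flank cannot be told apart from a lower scale factor in BM.

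As shares of the whole loss, the shoulder zone over all peaks held 29.3% of the signal lost in the window from 13.4% of the positions. The zone from 300 to 490 bp held 20.8%, and the centre 8.43% from 6.35% of the positions. On the flank scale the shoulder zone held 38% of the loss and 36.9% of the WT signal above flank, and the centre 8.87% against 10.7%. The shoulder's share of the loss was thus close to its share of the WT signal above flank, and the centre's share of the loss was lower. These are shares and not amounts. The mean shoulder excess over flank was 1.75 in WT and 1.13 in BM. In gene bodies the shoulder zone held 41.9% of the flank-scaled loss against 41.8% of the WT excess, and the centre 10.0% against 12.4%. At TSS the shares were more even along the window, with 30.9% at the shoulder and 25% from 300 to 490 bp.

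**Figure D3:**
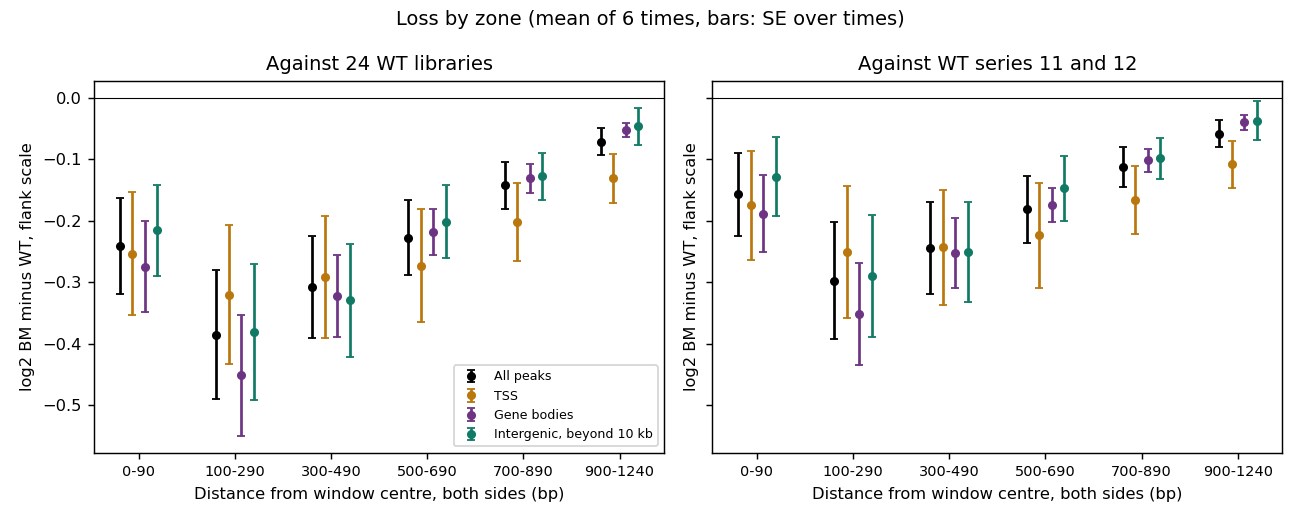
Log2 difference BM minus WT on the flank scale by zone of distance from the window centre in bp, against the 24 WT libraries (left) and WT series 11 and 12 (right), with bars for the SE over the 6 times. On the left the shoulder zone had the largest loss in each peak set, from -0.32 at TSS to -0.45 in gene bodies, and the zones from 700 bp out are closer to 0.

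The loss was not of the same size at each time. Over all peaks the shoulder zone on the flank scale in BM was 2.58, 2.10, 1.69, 2.46, 2.40 and 1.53 at ZT2, ZT6, ZT10, ZT14, ZT18 and ZT22. The WT means of 4 libraries at those times were 2.93 ± 0.27, 3.03 ± 0.33, 2.84 ± 0.42, 2.78 ± 0.095, 2.64 ± 0.29 and 2.30 ± 0.45 (SD, n = 4). BM lay below the lowest WT library at each time but ZT18, where BM at 2.40 stood just above the lowest WT library at 2.38. The log2 differences were -0.53 at ZT6, -0.74 at ZT10 and -0.57 at ZT22, and -0.18, -0.17 and -0.13 at ZT2, ZT14 and ZT18. With 1 BM library per time, a time and a library cannot be told apart, and no test of time within BM was made.

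The same 3 BM libraries were lowest in each class. In gene bodies BM read 2.08, 1.66, 1.42, 1.99, 1.99 and 1.32 from ZT2 to ZT22, below the lowest WT library at every time. At TSS it read 4.24, 3.55, 2.68, 3.99, 3.67 and 2.30, and at ZT2 and ZT18 it lay within the WT range, 3.95 to 4.72 and 3.6 to 4.36. Intergenic BM values were 2.44, 1.94, 1.58, 2.43, 2.34 and 1.49, with an overlap at ZT18, where the WT libraries ran from 2.31 to 2.87. The differences at ZT10, the largest in each class, were -0.66 at TSS, -0.78 in gene bodies and -0.75 in intergenic peaks.

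The central zone followed the same order of times. Over all peaks BM held 2.08, 1.67, 1.42, 2.03, 1.96 and 1.39 times the flank there from ZT2 to ZT22, against WT means of 2.15, 2.14, 2.04, 2.17, 2.08 and 1.81. At TSS BM at ZT2 was above the WT mean, 3.03 against 2.95 ± 0.30 (SD, n = 4). In the outermost zone of intergenic peaks BM was above the WT mean at ZT14 (1.13 in both to 3 digits, log2 difference 0.01) and at ZT18 (1.16 against 1.14).

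**Figure D4:**
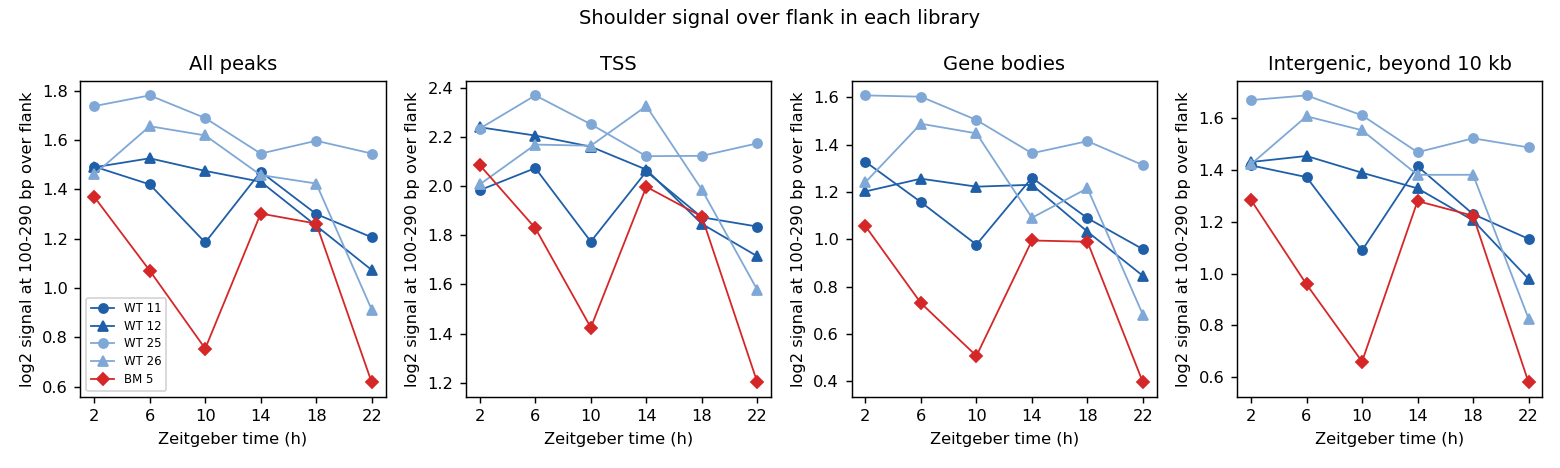
Log2 of the shoulder zone (100 to 290 bp) over the profile's own flank against zeitgeber time in h, with a point for each library and a line for each WT or BM series, 1 panel per peak set. BM is lowest at ZT10 and ZT22, at 0.75 and 0.62 over all peaks, which are ratios of 1.69 and 1.53.

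Whether the shape of the profile changed was asked with ratios inside each profile, which no factor that multiplies a whole library can move. A library-wide difference in enrichment above background would move them, and enrichment was not tested. The centre over the shoulder zone was -0.41 ± 0.075 on the log2 scale in WT over all peaks (SD, n = 24) and -0.27 ± 0.070 in BM (SD, n = 6). The difference was 0.14 (SE 0.03, exact permutation p = 0.000128, adjusted 0.000486), with BM above all WT libraries at 5 of 6 times, so the dip was shallower relative to the shoulder. In BM the 6 values were -0.32, -0.33, -0.24, -0.28, -0.29 and -0.14 from ZT2 to ZT22. The difference was 0.18 in gene bodies (adjusted exact p = 0.000374, 6 of 6 times), 0.17 in intergenic peaks (adjusted 0.000540, 5 of 6) and 0.07 at TSS (adjusted 0.00151, 5 of 6). Against WT series 11 and 12 the values were 0.14, 0.16, 0.16 and 0.08 in the order all, gene-body, intergenic and TSS peaks, and each passed.

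These ratios include the flank, so a profile that is only scaled down above its flank has a shallower dip as well. Taken above flank, the centre held 0.608 ± 0.052 of the shoulder excess in WT over all peaks (SD, n = 24) and 0.672 ± 0.051 in BM (SD, n = 6), a difference of 0.064 (adjusted exact permutation p = 0.00272 over 68 measures added after the profiles were seen). In gene bodies it went from 0.628 ± 0.067 to 0.734 ± 0.071 (adjusted exact p = 0.00218) with BM highest at 6 of 6 times. Intergenic peaks went from 0.644 ± 0.061 to 0.756 ± 0.060 (adjusted exact p = 0.00272), highest at 5 of 6 times. At TSS it was 0.580 ± 0.036 in WT and 0.586 ± 0.054 in BM, and the difference did not pass (exact permutation p = 0.642). The TSS value thus depends on whether the flank is taken off, and the other sets passed either way.

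The class difference in the centre-to-shoulder ratio was tested as such. TSS minus gene bodies changed by -0.11 between the genotypes on the log2 scale (adjusted exact permutation p = 0.00348), and TSS minus intergenic peaks by -0.10 (adjusted exact p = 0.00348). Gene bodies minus intergenic peaks differed by 0.01 (exact permutation p = 0.549). With WT series 11 and 12 as controls the TSS contrasts were -0.09 and -0.09, and each passed (adjusted exact p = 0.0311 and 0.0339). These contrasts include the flank, and their values above flank were not tested between classes.

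On the outer side the shoulder was compared with the zone from 300 to 490 bp. The log2 ratio was 0.34 ± 0.052 in WT and 0.26 ± 0.074 in BM over all peaks, a difference of -0.08 (adjusted exact permutation p = 0.00216, BM lowest at 5 of 6 times). In gene bodies it was 0.41 ± 0.070 in WT and 0.28 ± 0.095 in BM, a difference of -0.13 (adjusted exact p = 0.000374) with BM lowest at 6 of 6 times. At TSS the difference was -0.03 (adjusted exact p = 0.129) and did not pass, except without WT series 11 (-0.04, adjusted exact p = 0.0142). In intergenic peaks it was -0.05 (adjusted exact p = 0.0408), was not called against WT series 11 and 12 (-0.04, adjusted exact p = 0.0906), and was also lost without WT series 12 or 25 or without BM at ZT6, ZT10, ZT14 or ZT22.

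Above flank this outer ratio did not pass over all peaks (-0.03, exact permutation p = 0.162) or in gene bodies (-0.02, exact permutation p = 0.511), and in intergenic peaks it turned to 0.12 (adjusted exact p = 0.00145). In the same direction as that last value, the zone from 300 to 490 bp of intergenic peaks held 0.597 ± 0.022 of the shoulder excess in WT (SD, n = 24) and 0.549 ± 0.033 in BM (SD, n = 6), with an adjusted exact permutation p of 0.00475. The parts held from 300 to 490 bp in the other sets, 0.671 and 0.683 over all peaks, 0.831 and 0.842 at TSS and 0.571 and 0.578 in gene bodies for WT and BM, did not differ beyond their spread. Nor did those from 500 to 890 bp in any set.

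Between classes, the change in the ratio of the shoulder to the zone from 300 to 490 bp was less negative at TSS than in gene bodies by 0.10 on the log2 scale (adjusted exact permutation p = 0.00218, 6 of 6 times). In gene bodies it was more negative than in intergenic peaks by 0.08 (adjusted exact p = 0.00218, 5 of 6 times). Both contrasts include the flank, and above flank the class contrasts were not tested. On the flank scale the shoulder loss in gene bodies exceeded that in intergenic peaks by 0.07 (adjusted exact p = 0.0147), which was not called against WT series 11 and 12 (adjusted exact p = 0.0933). The shoulder loss at TSS was smaller than in gene bodies by 0.13, which did not pass (adjusted exact permutation p = 0.121). In the outermost zone before the flank, from 900 bp on, TSS peaks lost more than gene bodies by 0.08 (adjusted exact p = 0.0235) and more than intergenic peaks by 0.08 (adjusted exact p = 0.0168). Relative to WT series 11 and 12 the first of these passed (adjusted exact p = 0.0339) and the second did not (0.0861).

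**Figure D5:**
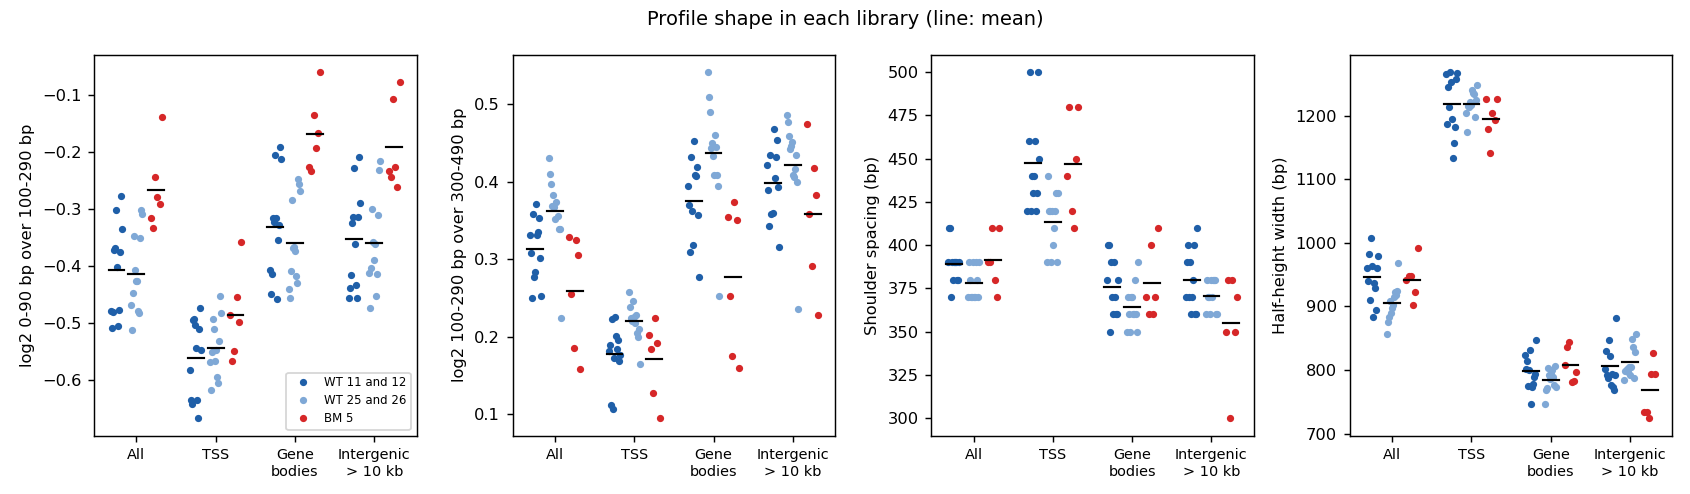
Measures of profile shape per library (points) with the mean (line) for WT series 11 and 12, WT series 25 and 26 and BM in the 4 peak sets, namely the log2 ratio of the centre to the shoulder zone, the log2 ratio of the shoulder to the zone from 300 to 490 bp, the shoulder spacing in bp and the width at mid-height in bp. The mean centre ratio is higher in BM in each set, -0.27 against -0.41 over all peaks, and single libraries of the genotypes overlap when the times are pooled.

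Over all peaks the distance between the shoulder maxima was 384 ± 12 bp in WT (SD, n = 24) and 392 ± 16 bp in BM (SD, n = 6), with 390, 390, 410, 380, 370 and 410 bp from ZT2 to ZT22. The difference of 7.92 bp (SE 4.5) is under the step of 10 bp between positions and did not pass (exact permutation p = 0.154). It was called without WT series 11, at 10.6 bp (adjusted exact permutation p = 0.0292). The left maximum was at -206 ± 6.5 bp in WT and -208 ± 7.5 bp in BM, and the right one lay 5.83 bp further out in BM (exact permutation p = 0.14). At TSS the right maximum lay 12.9 bp further out in BM (exact permutation p = 0.027, adjusted 0.102), and in intergenic peaks the left one lay 12.1 bp further in (exact permutation p = 0.0221, adjusted 0.0941), and neither passed after adjustment. Over all peaks the dip was at -19.2 ± 4.1 bp in WT and -20.0 ± 6.3 bp in BM.

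At TSS the spacing was 430 ± 29 bp in WT (SD, n = 24) and 447 ± 29 bp in BM (SD, n = 6), and in gene bodies 370 ± 16 and 378 ± 21 bp. Neither difference passed (exact permutation p = 0.259 and 0.289). The intergenic spacing was 355 ± 30 bp in BM against 375 ± 14 bp in WT, a difference of -20.4 bp (SE 14) that did not pass after adjustment (exact permutation p = 0.0426, adjusted 0.0531). The 6 BM values there were 350, 380, 300, 380, 350 and 370 bp, the lowest at ZT10. It was called with a running mean of 9 positions, at -22.1 bp (adjusted exact p = 0.00631), and as the centroid of the signal above flank, at -2.97 bp (adjusted exact p = 0.0307). It was also called without BM at ZT14 (-26.5 bp) or ZT22 (-23 bp), and was -7 bp without BM at ZT10 and -7.5 bp with no running mean.

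The width at mid-height, between the points where the signal above flank falls to the midpoint of its shoulder height, was 925 ± 39 bp in WT (SD, n = 24) and 942 ± 30 bp in BM (SD, n = 6) over all peaks. It was 1219 ± 36 and 1195 ± 33 bp at TSS, and 791 ± 24 and 808 ± 27 bp in gene bodies. None of these differed beyond the spread (exact permutation p = 0.297, 0.0964 and 0.158). Without WT series 12 the TSS width was called, at -30.5 bp (adjusted exact p = 0.0286). Intergenic peaks were narrower in BM, 768 ± 43 bp against 809 ± 29 bp, a difference of -40.9 bp (SE 17, adjusted exact permutation p = 0.00613). Against WT series 11 and 12 it was -37.9 bp (adjusted exact p = 0.0455). The BM widths there were 734, 733, 724, 794, 827 and 794 bp, so ZT2, ZT6 and ZT10 were the narrow ones, below all WT libraries of their time at 3 of 6 times.

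The loss was close to even on the left and right side. Over all peaks the shoulder zone held 29.7 ± 6.83 on the left and 29.7 ± 6.71 on the right in WT (SD, n = 24), and 19.5 ± 5.18 and 19.4 ± 5.31 in BM (SD, n = 6). The log2 ratio of left to right was -0.0055 ± 0.020 in WT and 0.0095 ± 0.014 in BM, a difference of 0.015 (adjusted exact permutation p = 0.133). In the order TSS, gene bodies and intergenic peaks the differences were 0.020, 0.0042 and 0.026, and none passed (exact permutation p = 0.201, 0.777 and 0.132). Leaving out a WT series or a BM library in turn gave -0.0024 to 0.032 at TSS and -0.0015 to 0.015 in gene bodies, so the sign there was not fixed. With WT series 11 and 12 as controls the difference passed over all peaks, at 0.02 (adjusted exact p = 0.0295), and in gene bodies, at 0.02 (adjusted exact p = 0.0484). Above flank it also passed over all peaks, at 0.03 (adjusted exact p = 0.0427). In intergenic peaks it passed without BM at ZT2, at 0.04 (adjusted exact p = 0.0482). In each of these the right shoulder was the lower one in BM relative to WT, by at most 0.04 on the log2 scale.

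From 300 to 490 bp both genotypes leaned to the left. There the left side exceeded the right over all peaks by 0.10 ± 0.021 on the log2 scale in WT (SD, n = 24) and 0.09 ± 0.029 in BM (SD, n = 6). In intergenic peaks the lean was 0.14 ± 0.036 in WT and 0.13 ± 0.059 in BM. Further out, from 700 to 890 bp, the ratio was -0.0019 in WT and -0.014 in BM over all peaks, and at TSS the right side was the higher one (-0.075 in WT and -0.060 in BM). At none of the outer zones to 890 bp did the side ratio differ between genotypes by an adjusted exact permutation p under the threshold in any set. The smallest unadjusted one was 0.0643, at TSS from 500 to 690 bp.

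A second nucleosome beyond the shoulder showed hardly at all as a maximum of its own in these averages. Between 280 and 480 bp no WT or BM profile over all peaks had a local maximum on either side. At TSS 7 of 24 WT profiles and 2 of 6 BM profiles had one on the right and none on the left. Gene-body profiles had one in 1 of 24 WT profiles on each side, and in BM in 1 of 6 on the left and none on the right. Intergenic profiles had one in 1 of 24 on each side in WT, and in BM in 2 of 6 on the left and none on the right. Where present it was low, and the TSS mean height over the trough was 0.0012 of the flank in WT and 0.0060 in BM. No set's difference passed (exact permutation p = 0.072 at TSS). Without BM at ZT2 the TSS difference was called at 0.0069 (adjusted exact p = 0.0498). With no running mean the intergenic one turned from -9.6e-05 to 0.0094 and passed (adjusted exact p = 0.00115).

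With whole series as the units, 1 BM series stood against 4 WT series, and the smallest exact permutation p such a design allows is 0.2. The shoulder zone on the flank scale in BM lay below all 4 WT series in each set, at 2.13 against 2.55 to 3.14 over all peaks and at 1.74 against 2.20 to 2.78 in gene bodies. The centre-to-shoulder ratio in BM lay above all 4 WT series in each set, at -0.27 against -0.44 to -0.39 over all peaks. Both measures reached 0.2 in each set. The central zone on the flank scale did not, with an exact permutation p over series of 0.4 in each set. For the ratio of the shoulder to the zone from 300 to 490 bp this p was 0.2 in gene bodies. It was 0.4 over all peaks and in intergenic peaks, and 0.6 at TSS. The labels do not tell whether libraries stem from separate animals. The p-values with libraries as the units therefore measure the spread between these libraries only.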

How the data were processed

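H2A.Z chromatin immunoprecipitation after micrococcal nuclease digestion was measured in mouse liver. Per the submitters' processing notes, CASAVA 1.7 and Bowtie were used with the mm9 build. How the signal was normalized is not given in the sources used here. Signal (averaged coverage) was deposited per library and peak set as 1 profile each, with the tag rmdup in the row names. The position step of 10 bp was inferred from the window of 3000 bp. BM series 8 (6 samples) was not analysed here. No gene is measured, so neither the Bmal1 deletion nor the liver label was checked. No peak sequence is shown, as a genome of that build was not used here.

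Log2 signal (no value was 0, pseudocount 0) was fitted with limma 3.58.1 (R 4.3.3) over 1196 positions with time as a factor and Benjamini-Hochberg adjustment, called under 0.05. Library values, computed with numpy 2.4.6, were tested by exact two-sided permutation of genotype within time. Shoulders were the maxima from 50 to 400 bp after a running mean of 5 positions. SEs of zone differences are over the 6 times. No 2 libraries held identical profiles. The fit was also run on simulated libraries drawn without a series effect, so that run does not bear on how libraries of a series vary together. Named positions were the WT maxima and minimum and the largest and smallest differences in each set. The members, zones and measures were chosen with earlier results of these data known. Alternatives changed the WT libraries, the libraries left out, the flank, the smoothing, the filter and the test.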

Additional observations from a re-analysis of the deposited data

Results flagged for a closer look

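Groups of 4 WT libraries at 1 time were checked for a library far from the others, and 10 were flagged, where chance alone gives about 9.8 (1 in 20 groups). Each flagged library is WT. BM has 1 library per time, so BM was checked only across times, and no BM library was flagged. WT series 25 at ZT2 had a high shoulder on the flank scale, at a log2 value of 1.74 over all peaks (the others 1.46 to 1.49) and 1.67 in intergenic peaks (the others 1.42 to 1.43). Its intergenic spacing was 360 bp, and that of the others 370 bp. At ZT10 the same series had a log2 centre-to-shoulder ratio of -0.45 over all peaks (the others -0.48) and a left-over-right ratio of 0.0641 in gene bodies (the others -0.02 to -0.01). WT series 26 at ZT6 had a centre-to-shoulder ratio of -0.48 over all peaks (the others -0.51). WT series 11 stood apart in spacing at 4 points. These were 380 bp over all peaks at ZT22 (the others 390 bp), 500 bp at TSS at ZT10 (the others 420 bp), and in intergenic peaks 390 bp at ZT6 (the others 380 bp) and 390 bp at ZT18 (the others 360 bp). Most of the flagged spacings differ from the others by 1 step of 10 bp. The shoulder loss was recomputed without WT series 25 and without WT series 11 and kept its call in each set.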

How the results depend on the processing

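Read depth is unknown, the scaling is the authors', and the BM arm is 1 series. Of the compared values, 724 kept their call or, for counts of positions, stayed near the main count. A value called in neither setting was taken as kept whatever its sign. Another 15 gained a call in the same direction, 15 lost theirs, 2 turned in sign, and 18 counts of positions moved further. For the library measures, leaving out a WT series or a BM library entered this tally only through the lowest and highest values. Calls that changed only in other such runs are not counted in it. With the series as a replicate block, 0 positions were lower on the authors' scale in any set, while on the flank scale 736 were. As all BM libraries share a series, neither fit can separate genotype from series. No paired analysis was possible because WT and BM share no replicate number. Deviations of WT libraries of 1 series had a median correlation of 0.36 (60 pairs, -0.72 to 0.89). Between series the median was -0.13 (180 pairs, -0.95 to 0.87). The count of positions higher on the flank scale, 12, was 0 against WT series 11 and 12, 0 with the block, 0 with the filter on low signal, 0 with a flank of 10 positions, 76 with a flank of 50, 70 with the flank of all peaks, and 1 to 27 with 1 library series or BM library left out. Against WT series 11 and 12 the shoulder asymmetry passed at 0.0212 (all peaks) and 0.0170 (gene bodies), and these fell short: centre at TSS (-0.175) and in intergenic peaks (-0.128), the zone from 900 bp on in gene bodies (-0.0399) and intergenic peaks (-0.0372), and the intergenic ratio of shoulder to 300 to 490 bp (-0.0393). Above flank that ratio was -0.0258 (all peaks) and -0.0164 (gene bodies), both short of the threshold, and 0.121 in intergenic peaks, the centre ratio at TSS fell short at 0.0116, and the asymmetry over all peaks passed at 0.0330. With labels permuted over all libraries the intergenic ratio fell short (-0.0513) and the intergenic spacing passed (-20.4 bp). The spacing also passed with a running mean of 9 (-22.1 bp) and as a centroid (-2.97 bp). With no running mean the intergenic second maximum turned to 0.00936. Leaving out WT series or BM libraries in turn gave the following ranges where a call changed. The range was -30.5 to -14.2 bp for the TSS width, 5 to 11 bp for the spacing over all peaks, -26.5 to -7 bp for the intergenic spacing, 0.00157 to 0.00688 for the second maximum at TSS, -0.0398 to -0.0158 (TSS) and -0.0672 to -0.0346 (intergenic) for the ratio of shoulder to 300 to 490 bp, and 0.0126 to 0.0386 for the intergenic asymmetry. In gene bodies it was -0.173 to -0.109 for the flank and -0.227 to -0.153 for the zone from 900 bp on on the authors' scale. On the flank scale the zone from 900 bp on ranged from -0.0616 to -0.0402 in gene bodies and from -0.0626 to -0.0256 in intergenic peaks. The cause of these changes was not tested.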
